A study of Mus musculus with 6 samples.

Results

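Mitochondrial ribosomal protein genes were examined in mouse CD4 T cells that carried either an empty retroviral vector or the same vector with Blimp-1. The genes were taken by name: every symbol in the deposited table that starts with Mrpl or Mrps and a digit, which gave 76 of 22414 genes. Of these, 47 are Mrpl genes, named for the large subunit, and 29 are Mrps genes, named for the small subunit. They came from 85 transcript rows, whose values were summed per symbol, and the RefSeq name of all 85 rows was the symbol in the table. All 76 passed the filter on low values, which was an FPKM (fragments per kilobase of transcript, scaled to library size) of at least 1 in 3 or more of the 6 libraries.

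The mitochondrial ribosome translates the few proteins that mitochondrial DNA encodes, all of them membrane subunits of the respiratory chain and of ATP synthase. Its RNAs come from mitochondrial DNA, but every one of its proteins is encoded in the nucleus, made in the cytosol and imported. Part of the set descends from bacterial ribosomal proteins and the rest is specific to mitochondria. T cells that leave the naive state enlarge their mitochondria and draw on mitochondrial translation while they grow and divide.

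Both groups of cells were wild type (WT) on the C57/BL6 background, and the labels give no age. Naive cells, sorted as CD4+ CD44lo CD62L+ CD25neg from spleen and lymph node, were activated on plate-bound antibodies to CD3 and CD28 while antibodies neutralised IL-4 and IFN-gamma, so that no helper lineage was favoured (Th0). After 36 hours they received MigR1 virus, either empty or carrying the Blimp-1 cDNA, and after 2 days cells positive for the GFP marker of MigR1 were sorted (another label has 3 days of activation). The empty vector libraries are the controls. There were 3 libraries per vector, called independent biological replicates in the labels and numbered 1 to 3 for each vector, and the comparison asks what Blimp-1 supplied from outside changes in otherwise equally treated cells. Blimp-1 was driven by a viral promoter at a level set by the vector, and all cells of both groups had been transduced.

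The control libraries had an estimated 18.6 to 41.5 M reads and the Blimp-1 libraries 36.6 to 50.0 M, and 10738 to 10859 genes per library reached 1 FPKM. Prdm1, the gene of Blimp-1, was at 0.996, 2.03 and 1.38 FPKM in empty vector replicates 1, 2 and 3 and at 9.91, 12.8 and 9.45 FPKM with Blimp-1. It was higher in each Blimp-1 library than in any empty vector library, by 2.26 on the scale of log2(FPKM + 1) (SE 0.19). Limma's adjusted p was 0.0634 from the vector alone and 0.00951 with the replicate number as a block. That scale shrinks the differences of genes near 1 FPKM, and the ratio of the mean FPKM was 7.30. The vector's cDNA and the cell's own transcript cannot be told apart in these values. The 6 T cell markers (Cd3d, Cd3e, Cd3g, Cd4, Cd28 and Lck) summed to 1638 to 1960 FPKM with the empty vector and 1650 to 1827 with Blimp-1, and Cd8a stayed at or below 0.169 FPKM. Of the B cell markers, 3 of 5 were under 1 FPKM in every library, and the 5 summed to 1.63 to 4.79 FPKM with the empty vector and 1.48 to 5.84 with Blimp-1. Of the NK cell markers, Ncr1 and Klrb1c were under 1 FPKM in every library and the 3, Klrd1 included, summed to 3.19 to 26.2 FPKM with the empty vector and 12.8 to 30.4 with Blimp-1, and their part in the results below was not tested.

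The mitochondrial ribosomal protein genes were on the whole slightly less abundant with Blimp-1, and over all 6 libraries the difference of no single member passed the test. The median log2 fold change over the 76 genes was -0.13 on the scale of log2(FPKM + 1), against -0.01 over all 10874 genes tested, and 65 of the 76 lay below 0 (85.5%, against 52.1% of all genes tested). The difference was largest in pair 3. In pairs of libraries with the same number the median difference was -0.05, -0.06 and -0.30 for numbers 1, 2 and 3. Lower with Blimp-1 in these pairs were 44, 55 and 63 of the 76 genes, against 5333, 5445 and 5574 of all 10874 genes tested. Rescaling each library to the same total, to the same quantiles or to the same median left the median of the 76 genes below 0, at -0.10, -0.11 and -0.12. In a bulk sample a lower value can come from less RNA per cell or from fewer cells that make it, and these cannot be told apart.

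Limma, a linear model fitted to all genes with shared variance, called none of the 76 genes with Benjamini-Hochberg adjustment at 0.05, whether the vector was its only term (smallest adjusted p = 0.998) or the replicate number was added as a block (smallest adjusted p = 0.163). Over all genes tested it called 0% without the block and 0.0184% with it. At an unadjusted p under 0.05 the fit without the block had 1 of the 76 lower, against 0.46% of all genes tested, and none higher. With the block 18 of the 76 were lower and 1 was higher, against 10.4% and 9.67% of all genes tested. Lower in all 3 pairs were 34 of the 76 genes (44.7%), against 22.8% of all genes tested. The 34 became 25 after rescaling to the same total and 31 with equal quantiles. The share of all genes tested under these scalings is not given here, so 22.8% is no like background for them. Higher in all 3 were Mrps6, Mrpl45 and Mrpl24, against 22.9%. In 5 genes (Mrpl20, Mrpl41, Mrpl11, Mrpl22 and Mrpl37) every Blimp-1 library lay below every empty vector library, against 2.37% of all genes tested. In none did every Blimp-1 library lie above, against 2.35%.

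**Figure D1:**
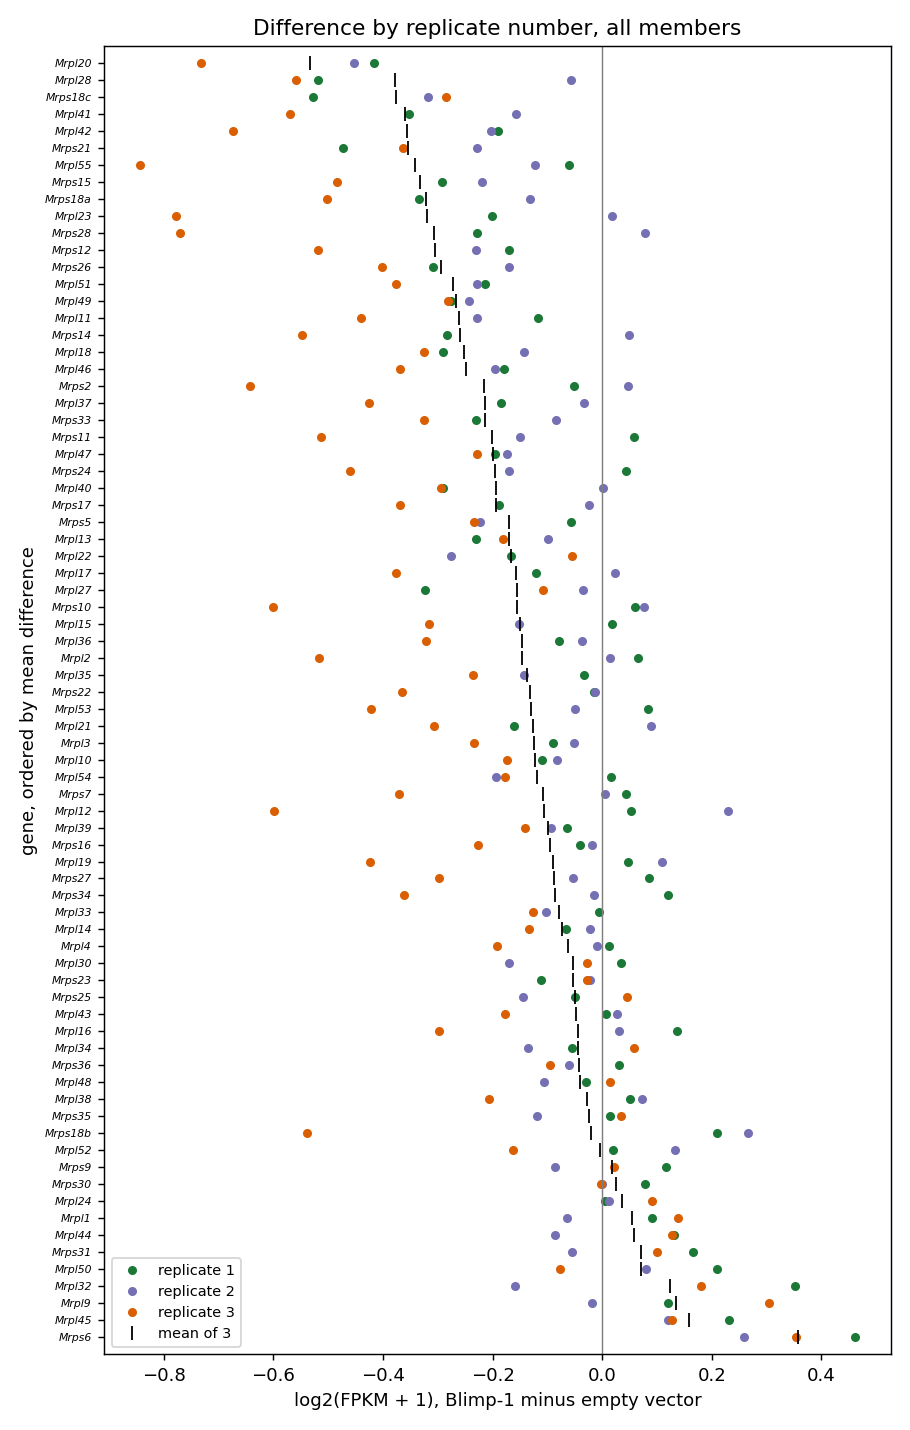
Difference in log2(FPKM + 1) between the Blimp-1 and the empty vector library of the same replicate number (horizontal axis) for each of the 76 genes (vertical axis, ordered by the mean of the 3, shown as a black tick). Replicate 3 (orange) lies furthest to the left for most genes, and its median is -0.30 against -0.05 and -0.06 for replicates 1 and 2.

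Summed over the 76 genes, the level was 2435, 2243 and 2904 FPKM in empty vector replicates 1, 2 and 3 (mean 2527 ± 340, SD, n = 3). It was 2322, 2123 and 2458 FPKM with Blimp-1 (mean 2301 ± 168, SD, n = 3). Empty vector replicate 3 had the highest sum of the 6 and Blimp-1 replicate 2 the lowest, and the groups overlapped, since Blimp-1 replicate 3 lay above empty vector replicates 1 and 2. The log2 ratio of the sums was -0.07, -0.08 and -0.24 in pairs 1, 2 and 3, and the log2 ratio of the group means was -0.14, which became -0.02 without empty vector replicate 3. As a share of all FPKM the 76 genes made up 0.469%, 0.456% and 0.528% in the controls and 0.453%, 0.446% and 0.464% with Blimp-1.

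**Figure D2:**
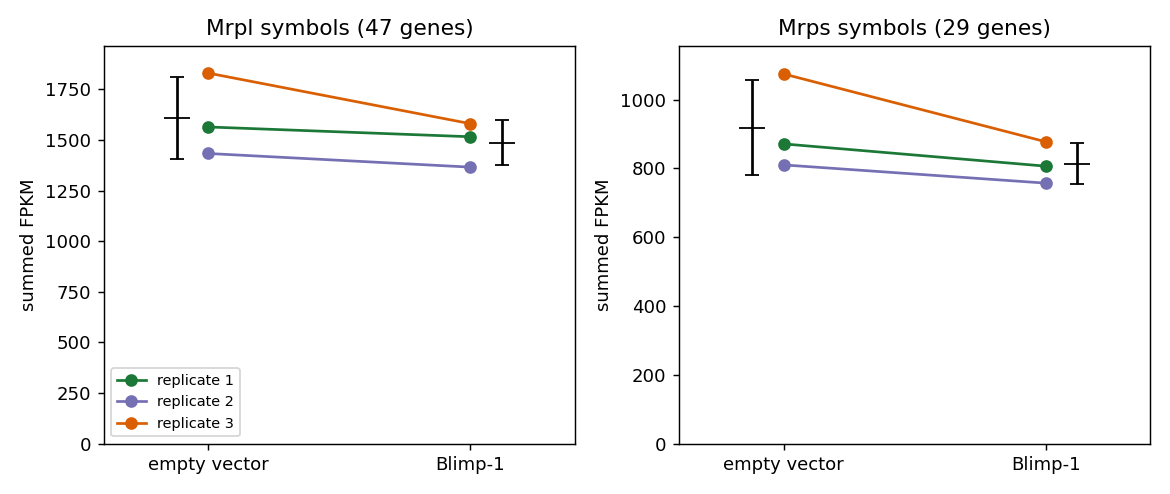
Summed FPKM of the 47 Mrpl genes (left) and the 29 Mrps genes (right) in each library, with a line joining the libraries of one replicate number and, beside them, the group mean with its SD as a bar (n = 3 per vector). All 3 lines slope down in both panels, and the line of replicate 3 starts highest and slopes most.

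The genes of both subunits lay slightly lower with Blimp-1, within the spread of their sums. The Mrpl genes summed to 1609 ± 202 FPKM in the controls and 1487 ± 110 with Blimp-1, and the Mrps genes to 919 ± 138 and 814 ± 60.5 (SD, n = 3 each). Median log2 fold changes were -0.13 for Mrpl genes (40 of 47 below 0) and -0.15 for Mrps genes (25 of 29 below 0). By pair the medians were -0.06, -0.06 and -0.23 for Mrpl and -0.04, -0.05 and -0.36 for Mrps. The ratio of summed Mrpl to summed Mrps FPKM was 1.7945, 1.7682 and 1.7024 in empty vector replicates 1, 2 and 3 and 1.8786, 1.8029 and 1.8002 with Blimp-1, so the lowest Blimp-1 ratio lay just above the highest in the controls. The symbols do not always match the structure: the products of Mrps18a and Mrps30 sit in the large subunit, and that of Mrps36 was later assigned to a dehydrogenase complex.

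Empty vector replicate 3 stood apart from the other libraries in these genes. Of the 76, 53 had their highest value of all 6 libraries there (69.7%, against 29.2% of all genes tested), and 56 were above both other empty vector libraries (73.7%, against 37.9%). Its excess over the mean of the other empty vector libraries was 0.32 on the log2 scale at the median of the 76 genes, against 0.00 over all genes tested. The mean deviation of the 76 genes from their own means was 0.28 in that library, 0.00 and -0.07 in empty vector replicates 1 and 2, and -0.07, -0.14 and 0.01 in Blimp-1 replicates 1, 2 and 3. It was also the shallowest library, at 18.6 M reads, next to empty vector replicate 1 at 19.5 M, and the part of depth in the excess was not tested. Without it the median log2 fold change of the 76 genes was -0.03 and 49 lay below 0 (64.5%, against 51.3% of all genes tested).

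Without pair 3, the fit with the block called 5 of the 76 genes, against 8.22% of all genes tested, which is no more than the background share. The 4 lower ones were Mrpl20, Mrps18c, Mrps21 and Mrps15 and the higher one was Mrps6. In that fit the median of the 76 genes was -0.07, with 51 below 0, against 5444 of all 10874 genes tested. It keeps few libraries per vector, so its p-values rest largely on the variance limma shares over all genes. With another pair left out instead, the fit with the block called none of the 76. These 5 genes are described first, since they were the only ones any limma fit named here called after Benjamini-Hochberg adjustment over all genes.

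The upstream sequences of 4 of these 5 genes are given to show how the promoters of this family differ in the motifs they hold. Each stretch below is the 250 bases before the gene's RefSeq start on build GRCm38.p6, 5′ to 3′ on the gene's own strand. Capitals mark matches to the letters searched for, named after each sequence. Mrpl20 lies at chr4:155802628-155802877 on the plus strand and Mrps18c at chr5:100798509-100798758 on the plus strand. Mrps21 lies at chr3:95871515-95871764 on the minus strand and Mrps6 at chr16:92058086-92058335 on the plus strand.
Mrpl20: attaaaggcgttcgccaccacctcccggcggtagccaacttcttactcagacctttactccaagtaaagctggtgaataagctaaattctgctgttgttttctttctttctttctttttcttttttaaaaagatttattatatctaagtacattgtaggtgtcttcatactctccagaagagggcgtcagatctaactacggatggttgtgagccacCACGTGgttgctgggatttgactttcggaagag
Mrps18c: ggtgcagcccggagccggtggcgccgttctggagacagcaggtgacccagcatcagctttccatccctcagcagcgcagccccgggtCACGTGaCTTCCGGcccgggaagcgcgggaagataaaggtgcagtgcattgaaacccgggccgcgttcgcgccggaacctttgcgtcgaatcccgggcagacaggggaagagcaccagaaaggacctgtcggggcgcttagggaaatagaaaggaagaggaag
Mrps21: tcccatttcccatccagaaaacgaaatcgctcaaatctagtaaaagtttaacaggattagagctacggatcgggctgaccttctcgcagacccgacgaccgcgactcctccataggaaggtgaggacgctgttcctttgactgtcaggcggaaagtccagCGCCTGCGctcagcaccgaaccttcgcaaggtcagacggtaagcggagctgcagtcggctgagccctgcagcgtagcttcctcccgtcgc
Mrps6: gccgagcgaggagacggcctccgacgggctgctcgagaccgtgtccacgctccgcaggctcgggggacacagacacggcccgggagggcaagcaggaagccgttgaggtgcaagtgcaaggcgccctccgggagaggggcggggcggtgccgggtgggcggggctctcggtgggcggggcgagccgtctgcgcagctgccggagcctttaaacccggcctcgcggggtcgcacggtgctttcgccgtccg
Mrpl20 holds an E-box (CACGTG) that begins 33 bases before the start. Mrps18c holds an E-box that begins 163 bases before the start and, 1 base further on, the ETS letters CCGGAAG on the other strand, which begin 156 bases before it. Mrps21 holds the core of the NRF1 site (CGCANGCG) on the other strand, 90 bases before the start, and in the window that takes in 50 more bases after the start it also matched the ETS letters. Mrps6 holds none of the 5 motifs searched. Mrps15, whose sequence is not printed, also holds none, counted in the window with 50 more bases after the start.

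Mrpl20 encodes a large subunit protein whose bacterial counterpart binds ribosomal RNA early in assembly. It was at 33.8, 36.9 and 51.1 FPKM in empty vector replicates 1, 2 and 3 and at 25.1, 26.7 and 30.4 FPKM with Blimp-1. All 3 Blimp-1 libraries lay below all 3 empty vector libraries. The group means were 40.6 ± 9.24 and 27.4 ± 2.72 FPKM (SD, n = 3 each), and the log2 fold change of -0.53 (SE 0.18) was the furthest from 0 among the 76 genes. In limma its adjusted p was 0.998 without the block and 0.163 with it, and 0.00449 with the block and without pair 3, where it fell by 0.43 on the log2 scale.

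Mrps18c encodes the copy of bacterial S18 that occupies the S18 position of the small subunit. It was at 57.2, 52.0 and 77.3 FPKM in the controls and at 39.4, 41.6 and 63.3 FPKM with Blimp-1. Each Blimp-1 library was below its partner, but the groups overlapped because both libraries numbered 3 were high. The log2 fold change was -0.38 (SE 0.23 without the block, 0.07 with it), and limma's adjusted p was 0.163 with the block and 0.00677 without pair 3. The other S18 copies are shown beside it. Mrps18a, whose product sits in the large subunit, was at 17.3, 16.4 and 26.0 FPKM in the controls and 13.5, 14.9 and 18.04 with Blimp-1, a log2 fold change of -0.32 (limma adjusted p with the block 0.179). Mrps18b was at 17.0, 12.8 and 18.4 FPKM in the controls and 19.8, 15.6 and 12.4 with Blimp-1, and so was higher in pairs 1 and 2 (0.21 and 0.27) and lower in pair 3 (-0.54).

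Mrps21, a small subunit protein with a bacterial counterpart, is among the most abundant of the family. It was at 119, 117 and 162 FPKM in the controls and at 85.4, 99.3 and 126 FPKM with Blimp-1. The differences within pairs were -0.47, -0.23 and -0.36, all in the same direction, while the groups overlapped through the high value of Blimp-1 replicate 3. Its adjusted p in limma was 0.163 with the block and 0.0154 without pair 3.

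Mrps15 encodes the counterpart of bacterial S15, which binds small subunit ribosomal RNA directly. It was at 43.4, 41.0 and 65.6 FPKM in the controls and at 35.3, 35.1 and 46.6 FPKM with Blimp-1. Blimp-1 replicate 3 was above empty vector replicates 1 and 2, and each Blimp-1 library was below its partner. The log2 fold change was -0.33 (SE 0.21 without the block), with a limma adjusted p of 0.163 with the block and 0.0443 without pair 3.

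Mrps6 went the other way. Its bacterial counterpart S6 pairs with S18 in the small subunit, so its product and that of Mrps18c are neighbours. It was at 36.7, 25.9 and 26.8 FPKM in the controls and at 50.8, 31.3 and 34.5 FPKM with Blimp-1. Every Blimp-1 library was above its partner, by 0.46, 0.26 and 0.35 on the log2 scale, although the groups overlapped because both libraries numbered 1 were high. Limma gave a log2 fold change of 0.36 (SE 0.22 without the block) and an adjusted p of 0.163 with the block and 0.0154 without pair 3.

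Mrps6 shares exon sequence on the same strand with Slc5a3, a sodium and myo-inositol transporter gene, whose RefSeq start lies 14 bases upstream of the Mrps6 start. Slc5a3, chosen after its values were seen, was at 3.51, 1.78 and 1.28 FPKM in the controls and 4.58, 2.45 and 2.30 with Blimp-1. It too was higher in every pair (0.31, 0.31 and 0.53), with an adjusted p of 0.163 in the limma fit with the block. How the authors' counting divided reads between both genes is not given in the sources used here. Reads that match both cannot be told apart. In the GENCODE M21 basic annotation 25 of the 76 genes share exon sequence with another gene, 17 of them with a protein-coding gene, and of those Mrps6 and Mrpl53 share it on the same strand.

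**Figure D3:**
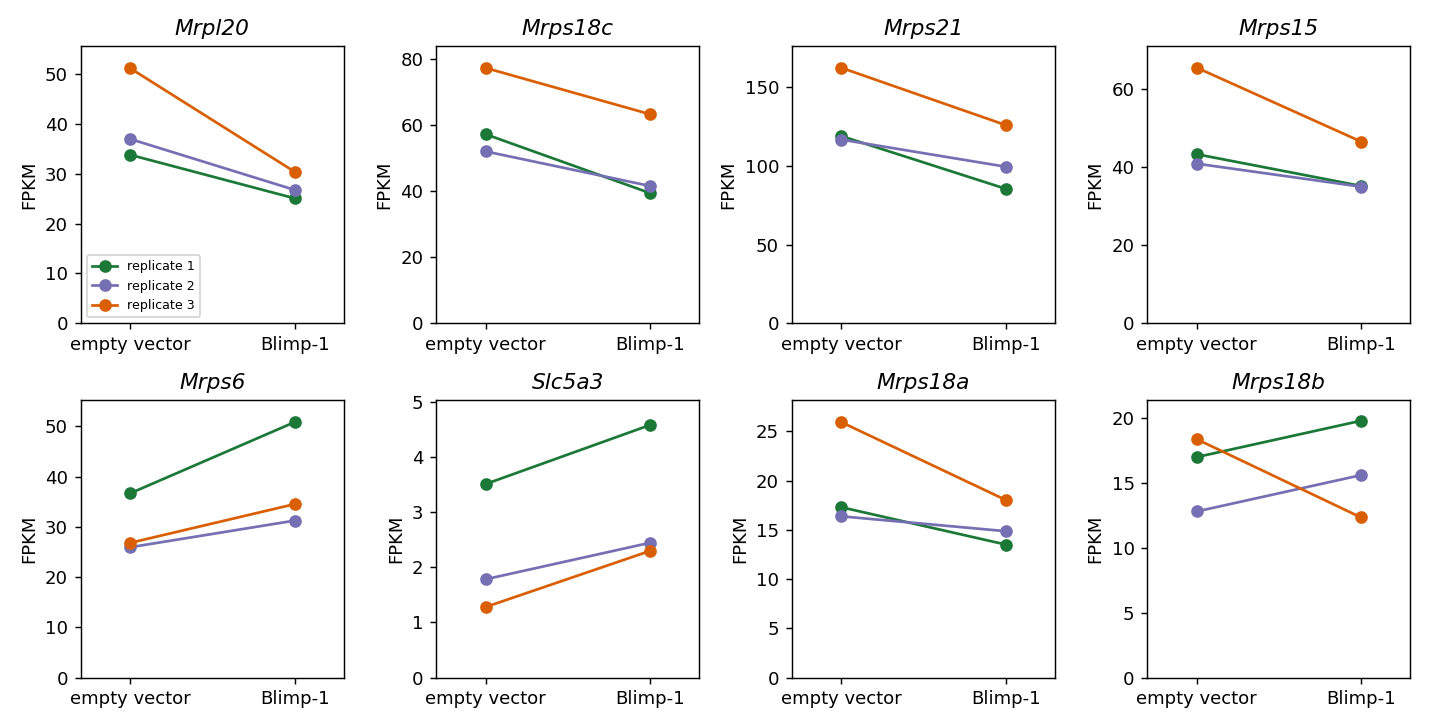
FPKM (vertical axes from 0) of the 5 genes called without pair 3, of Slc5a3, which overlaps Mrps6, and of the other S18 copies Mrps18a and Mrps18b, in the empty vector and Blimp-1 library of each replicate number, joined by a line. Mrpl20, Mrps18c, Mrps21, Mrps15 and Mrps18a slope down in all 3 pairs, Mrps6 and Slc5a3 slope up in all 3, and Mrps18b does both.

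The next lower genes by the fit with the block had differences that ran the same way in all pairs. Mrpl49, a protein specific to mitochondria, was at 12.9, 12.5 and 17.9 FPKM in the controls and 10.4, 10.4 and 14.6 with Blimp-1, with pair differences of -0.28, -0.24 and -0.28. Mrps26 was at 44.1, 37.4 and 51.6 FPKM in the controls and 35.4, 33.1 and 38.8 with Blimp-1, a log2 fold change of -0.29. Mrpl51 was at 21.8, 19.0 and 32.0 FPKM in the controls and 18.7, 16.0 and 24.5 with Blimp-1, a log2 fold change of -0.27. In all 3 of these genes each Blimp-1 library was below its partner and the groups overlapped, and limma's adjusted p with the block was 0.163, 0.169 and 0.169. Mrpl18, a counterpart of the bacterial protein that binds 5S ribosomal RNA, was at 65.3, 45.2 and 79.7 FPKM in the controls and 53.2, 40.8 and 63.45 with Blimp-1 (limma adjusted p with the block 0.173). Its exons overlap those of Tcp1 on the opposite strand, and without a stated strand setting reads of both cannot be told apart. Mrpl41, one of the least abundant members, was at 5.31, 5.56 and 7.48 FPKM in the controls and 3.94, 4.89 and 4.72 with Blimp-1 and did not overlap between the groups, with a log2 fold change of -0.36 (SE 0.16, limma adjusted p 0.174 with the block).

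The higher genes after Mrps6 had differences near the spread of a pair. Mrpl45, whose product lies at the exit of the peptide tunnel and ties the ribosome to the inner membrane, was at 30.2, 24.1 and 23.0 FPKM in the controls and 35.6, 26.3 and 25.2 with Blimp-1. It was higher in all 3 pairs (0.23, 0.12 and 0.13), with a limma adjusted p of 0.25 with the block. Mrpl9 was at 82.6, 83.6 and 58.3 FPKM in the controls and 89.9, 82.6 and 72.3 with Blimp-1, and was the gene that empty vector replicate 3 had lowest relative to the other empty vector libraries (-0.50). Its log2 fold change of 0.14 became -0.03 without that library. Mrpl24, another tunnel exit protein, was at 51.3, 53.9 and 48.1 FPKM in the controls and 51.5, 54.4 and 51.3 with Blimp-1, with pair differences of 0.01, 0.01 and 0.09. Mrpl32, Mrpl44, Mrpl50, Mrpl1, Mrps31 and Mrps30 had log2 fold changes between 0.03 and 0.12, none of them with the same sign in all pairs.

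Some members varied more between libraries of one vector than between vectors. The largest spread within groups was that of Mrpl28, at 34.3, 23.0 and 55.0 FPKM in the controls and 23.6, 22.1 and 37.0 with Blimp-1. Mrps28, the counterpart of bacterial S1, was at 8.31, 5.75 and 14.6 FPKM in the controls and 6.95, 6.12 and 8.15 with Blimp-1. Mrpl55 was at 6.05, 7.97 and 14.5 FPKM in the controls and 5.76, 7.24 and 7.66 with Blimp-1. In all 3, empty vector replicate 3 was the highest of the 6 libraries, and the difference within pair 3 was -0.56, -0.77 and -0.84. Mrpl42 showed the same form, at 34.1, 35.2 and 63.0 FPKM in the controls and 29.8, 30.4 and 39.1 with Blimp-1. Mrps2 differed in that both vectors had a low replicate 1, at 4.51, 7.26 and 8.505 FPKM in the controls and 4.32, 7.54 and 5.09 with Blimp-1.

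The family spans a wide range of levels. FPKM is scaled to transcript length, so levels can be set side by side, although values of short transcripts depend on how the authors' software corrected for fragment length. Mean FPKM over the 6 libraries ran from 2.50 (Mrpl17) to 136 (Mrpl33), with a median of 23.2, against 11.4 for all genes tested. The most abundant were Mrpl33, Mrpl30 (127), Mrps16 (127), Mrps21 (118) and Mrpl52 (115), followed at a distance by Mrpl9 (78.2) and Mrpl14 (72.5). The ranges of the first 5 over the libraries overlapped, and Mrpl33 alone ran from 112 to 174 FPKM. Within libraries Mrpl33 was above Mrps21 and Mrpl52 in all 6, but below Mrps16 in some. At the low end stood Mrpl17, Mrpl11 (3.55), Mrpl19 (5.17), Mrpl41 (5.32) and Mrps2 (6.21).

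Mrpl33, Mrps16, Mrpl30, Mrpl52 and Mrpl14 had smaller differences between vectors than Mrps21 (log2 fold change -0.35), and none of them was called. Differences nearer that of Mrps21 were seen in Mrps18c, Mrps15 and Mrps26, also abundant Mrps genes, at -0.38, -0.33 and -0.29. Of these, Mrps18c and Mrps15 were called by the fit with the block without pair 3. Mrpl33 was at 127, 120 and 174 FPKM in the controls and 127, 112 and 159 with Blimp-1, and Mrps16 at 135, 114 and 146 and then 131, 113 and 124. Mrpl30 was at 120, 128 and 141 FPKM in the controls and 123, 114 and 138 with Blimp-1. Their log2 fold changes were -0.08, -0.10 and -0.05, and Mrpl33 and Mrps16 were lower in all 3 pairs. Mrpl52 was at 123, 96.3 and 127 FPKM in the controls and 125, 106 and 113 with Blimp-1, and its log2 fold change was -0.0031, but above 0 under the other scalings (0.037 with the same total, 0.067 with equal quantiles and 0.00398 with equal medians). Mrpl14 was at 87.6, 54.3 and 81.6 FPKM in the controls and 83.7, 53.5 and 74.3 with Blimp-1, so that both libraries numbered 2 were low. It was lower with Blimp-1 in all 3 pairs, with a log2 fold change of -0.07.

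**Figure D4:**
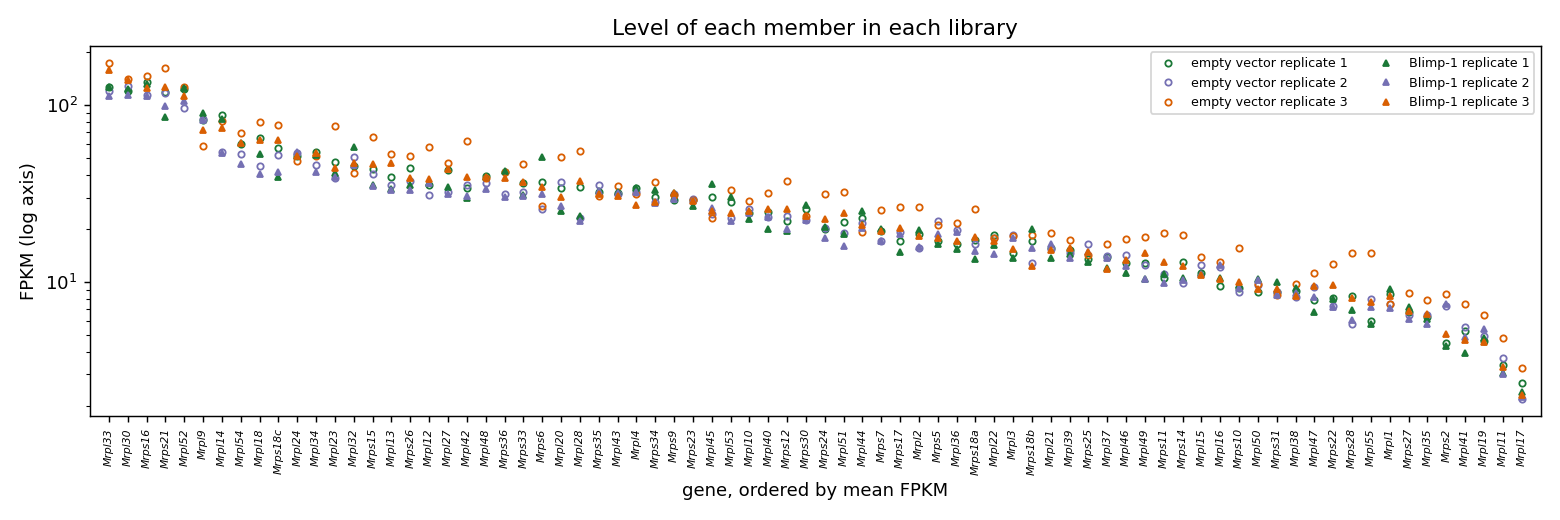
FPKM (vertical log axis) of each of the 76 genes (horizontal axis, ordered by mean FPKM) in each library, with open circles for the empty vector, filled triangles for Blimp-1 and a colour for each replicate number. Levels run from 2.50 FPKM (Mrpl17) to 136 FPKM (Mrpl33) as means over the 6 libraries, and the orange circle of empty vector replicate 3 is the topmost mark for 53 genes.

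Of the 76 genes, 7 had more than 1 transcript row. In Mrps10 the rows traded places between libraries, and the first of its 3 rows was at 8.78, 4.39 and 14.6 FPKM in the controls and 5.35, 5.01 and 1.002 with Blimp-1. The second was at 0.00582, 3.32 and 0.000755 FPKM in the controls and 3.06, 2.11 and 6.23 with Blimp-1. The sum over the rows varied less, at 9.21, 8.76 and 15.6 FPKM in the controls and 9.65, 9.29 and 9.92 with Blimp-1. The log2 fold change of the sum was -0.15. Taking in each library whichever row was highest there, so not the same row throughout, gave -0.52. In Mrpl48 the second row, a non-coding transcript, was near 0 in empty vector replicate 1 and Blimp-1 replicate 3 and between 1.42 and 3.40 FPKM elsewhere, beside 32.2 to 39.9 FPKM for the coding row. Mrpl1, Mrpl15, Mrps2, Mrps33 and Mrps36 had summed log2 fold changes of 0.06, -0.15, -0.22, -0.21 and -0.04.

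Grouped by origin, the 46 genes with a bacterial counterpart had a median log2 fold change of -0.15 and the 27 specific to mitochondria one of -0.09. Without empty vector replicate 3 both medians were -0.03, and without pair 3 both were -0.07. Grouped by place in the ribosome, the 4 genes of the stalk, which recruits translation factors, had a median of -0.13. The stalk protein genes Mrpl10, Mrpl11, Mrpl12 and Mrpl53 were all below 0, but Mrpl12, which encodes the factor-binding protein itself, was at 0.05 and 0.23 in pairs 1 and 2 and -0.60 in pair 3. The 6 genes of the central protuberance, the crest of the large subunit, had a median of -0.22, all below 0, which became -0.05 with 5 below 0 without empty vector replicate 3. The 7 genes of the tunnel exit (Mrpl17, Mrpl22, Mrpl23, Mrpl24, Mrpl44, Mrpl45 and Mrpl47) had a median of -0.16, with 4 below and 3 above 0 and medians of -0.12, 0.01 and -0.05 in pairs 1, 2 and 3. Without empty vector replicate 3 their median was -0.05, with 6 of 7 below 0, and that of the stalk was -0.04. Without pair 3 the medians were -0.12 in the central protuberance, -0.05 at the tunnel exit and -0.04 in the stalk, and differences between the sites were not tested. The excess of empty vector replicate 3 was -0.02 at the median of the tunnel exit genes.

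Of the other proteins and factors of mitochondrial translation limma called none, with or without the block, after Benjamini-Hochberg adjustment over all genes. The 7 mitoribosome proteins under other symbols had a median log2 fold change of -0.07, all 7 below 0, with pair medians of -0.05, -0.06 and -0.22. Among them Ptcd3, which binds small subunit ribosomal RNA, was at -0.19, and Chchd1 was at -0.18. RefSeq names also place Ict1 (Mrpl58) and Mrp63 (Mrpl57) in the family, and these were at -0.07 each. The 15 mitochondrial translation factors had a median of -0.08, from -0.25 for Gfm2, a factor of ribosome recycling, and -0.21 for Tsfm, an elongation factor, to 0.08 for Mrrf and 0.15 for Mtrf1, a release factor homologue. Tufm, the most abundant elongation factor among them, was at -0.01. By pair, Gfm2 was at 0.08, 0.22 and -1.05 and Tsfm at -0.07, 0.02 and -0.58, while Mtrf1 was higher in all 3.

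The 23 genes of mitoribosome assembly and ribosomal RNA modification had a median of -0.06. Mpv17l2, an assembly factor of the inner membrane, was the lowest of them at -0.36 (limma adjusted p with the block 0.169) and Mettl17 was at -0.25 (0.184), while Mterfd2 was at 0.10 and Mettl15 at 0.04. The 5 genes of mitochondrial transcription had a median of -0.08, with Tfb2m at 0.05. Tefm, an elongation factor of the mitochondrial polymerase, was at -0.18, with pair differences of 0.07, -0.09 and -0.52. Of 10 listed regulators of nuclear genes for mitochondrial proteins, 7 passed the filter. Their median was -0.05, with Yy1 at 0.21, Gabpa at 0.18, Esrra at -0.11 and Myc at -0.27. Yy1 and Gabpa were higher and Esrra and Nrf1 lower in all 3 pairs. Nrf1 differed by -0.06, -0.08 and -0.01 in pairs 1, 2 and 3. Its Blimp-1 libraries all lay below its empty vector libraries, as in 2.37% of all genes tested. Myc was at -0.09, 0.25 and -0.96 in pairs 1, 2 and 3. Without pair 3 the limma fit with the block called Pprc1, a coactivator gene, higher by 0.41 (adjusted p = 0.0275). That fit called no other gene of these 5 lists, against 8.22% of all genes tested. The difference of Pprc1 in pair 3 was -0.89.

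The genes of oxidative phosphorylation and of the cytosolic ribosome were measured in the same way. The 81 tested of 85 nuclear genes for oxidative phosphorylation subunits, whose products assemble with the proteins that the mitochondrial ribosome makes, had a median log2 fold change of -0.22, with 75 below 0 and pair medians of -0.18, -0.12 and -0.42. They shared the high values in empty vector replicate 3, with an excess of 0.48 at the median, and their median was -0.07 without that library. Without pair 3 the limma fit with the block called 17 of the 81 lower and 1 higher. Of all 10874 genes tested it called 508 lower and 386 higher, 8.22% together. The 76 cytosolic ribosomal protein genes had a median of -0.01 and pair medians of 0.01, -0.06 and 0.01, and their excess in empty vector replicate 3 was 0.13.

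**Figure D5:**
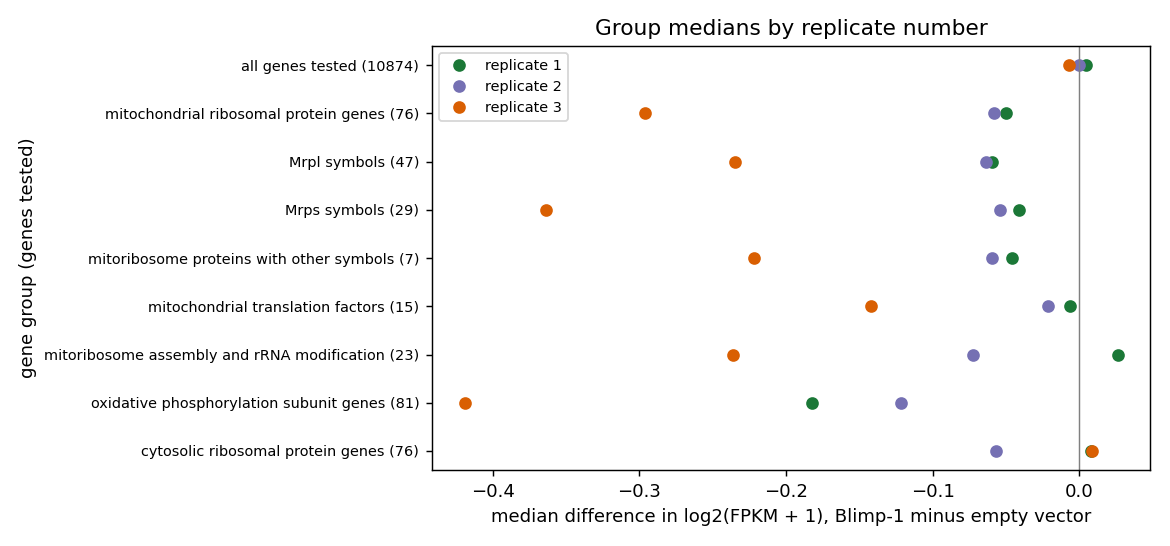
Median difference in log2(FPKM + 1), Blimp-1 minus empty vector, within the pair of each replicate number (horizontal axis) for each gene group (vertical axis, number of genes tested in brackets). For the mitochondrial ribosomal protein genes the 3 medians are -0.05, -0.06 and -0.30, between those of the oxidative phosphorylation genes (-0.18, -0.12 and -0.42) and the cytosolic ribosomal protein genes (0.01, -0.06 and 0.01).

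The genes of other families whose profile over the 6 libraries was most like the mean profile of the 76, by Pearson r over these 6 libraries, were Uspl1 (0.997), Tpi1 (0.996), Map3k10 (0.995), Zfand2b (0.994) and Atp5i (0.993). All share the same libraries and their depth, so the values only describe likeness. Tpi1, a glycolytic enzyme gene, was at 437, 388 and 759 FPKM in the controls and 387, 362 and 446 with Blimp-1, highest in empty vector replicate 3 as most of the family was. Within the family r had a median of 0.80, with 39 genes above 0.8 and 13 below 0, of which Mrpl24 (-0.93) and Mrpl9 (-0.92) ran most opposite.

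Promoter sequence was counted over the family in windows of 300 bases, 250 before and 50 after each RefSeq start, on both strands, and 67 of the 76 genes had a window. A gene, member or other tested gene, counted if any of its windows matched. The share of all windows is over 32851 single windows, also of genes not tested. The ETS letters CCGGAAG were in 24 of the 67 (35.8%), against 22.2% of other tested genes and 8.86% of all windows. The YY1 letters AANATGGC were in 20 (29.9%), against 10.9% and 6.05%. The NRF1 core CGCANGCG was in 19 (28.4%), against 21.1% and 8.21%. One or more of these 3 motifs, which belong to regulators known for nuclear genes of mitochondrial proteins, were in 46 of the 67 (68.7%), against 44.5% of other tested genes and 20.2% of all windows.

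Letters of the Blimp-1 site, AGNGAAAG, were in 3 of the 67 genes with a window (4.48%), against 9.18% of other tested genes and 8.63% of all windows. The 3 genes were Mrpl28, Mrpl32 and Mrps16, with log2 fold changes of -0.38, 0.12 and -0.10. The E-box CACGTG was in 5 (7.46%), against 12.6% and 7.15%. Median log2 fold changes of genes with and without a motif were -0.09 and -0.16 for the NRF1 core, -0.13 and -0.15 for ETS, and -0.20 and -0.12 for YY1. They were -0.10 and -0.14 for the Blimp-1 letters and -0.21 and -0.13 for the E-box. A match is a description of the letters and not of binding, which was not measured in these libraries, and the windows were not matched on base composition.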

How the data were processed

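RNA-seq of 6 libraries was used. The authors deposited 1 table that gives an FPKM value for each of 29868 RefSeq transcripts in each library. CASAVA 1.8.2, Cufflinks 2.2, Partek 6.6 and mm9 stand in the submitters' processing notes without their roles. Aligner, annotation release and strand setting were not given in the sources used here. An FPKM is a share of the library and not an amount per cell.

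Rows were added up by symbol, and the 1138 rows that lacked one kept their accession. A gene entered the fit if 3 or more libraries had an FPKM of at least 1, which left 10874. Limma 3.58.1 (R 4.3.3) was fitted to log2 values of FPKM plus a pseudocount of 1, with its trend option, and p-values were adjusted by Benjamini and Hochberg's method with a threshold of 0.05. Fold changes on this scale are too small for low genes. The fit was checked on simulated data, and no count test was run.

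Depth was estimated from the FPKM that 1 read is worth in transcripts over 1000 bases, assuming fragments of 200 bases. Between 67.5% and 71.8% of the low values came within 0.1 read of a whole number.

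What a replicate number marks is not in the labels. After subtraction of each vector's mean, libraries that share a number correlated at 0.75, 0.79 and 0.66 over all genes tested. All other pairs of vectors' libraries correlated below 0, which follows largely from that subtraction and is no separate support. Equal numbers were treated as pairs because of the positive correlations. The fit with the replicate number as a block stands beside the one without.

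The members and all gene lists, motifs and tests were chosen with earlier results of these data known. Genes were named if they were Prdm1, or among the 76 had the highest level (5 per subunit), up to 10 of the smallest p in each direction with the block, the 6 largest fold changes, the 4 largest spreads within vectors, more than 1 transcript row, or were S18 copies. Genes of the lists and those with groups that did not overlap were added after their values were seen. Promoter sequences and gene starts are from RefSeq, GRCm38.p6, and exon overlaps from GENCODE M21. Alternatives were other pseudocounts, filters, scalings, summaries and gene names, no trend, the block, and each library or pair left out.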

Additional observations from a re-analysis of the deposited data

How the results depend on the processing

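Limma called 0 genes without the block, 1 after scaling to equal medians, 2 with the replicate block, and 0 to 894 with a library or pair left out (894 with the block without pair 3). Among the 76 genes it called 0 with and without the replicate block, and 0 to 5 with a library or pair left out (5 without pair 3). The block changed no other call than that of Prdm1 among the named genes. Groups that did not overlap were found in 5 of the 76 genes, and in 6 to 23 with a library or pair left out. Groups of fewer libraries overlap less readily. The share of all genes tested under these omissions was not taken, so the rise cannot be read as a result about the 76. The median log2 fold change of the 76 genes, -0.13, ran from -0.19 without empty vector replicate 2 to -0.03 without empty vector replicate 3, and the log2 ratio of the sums, -0.14, from -0.21 to -0.024. The median of the transcription genes, -0.08, was -0.053 after rescaling to the same total and ran from -0.15 to -0.012 with a library or pair left out. Under the same omissions the regulators ran from -0.15 to 0.079 and the mitoribosome proteins with other symbols from -0.17 to -0.013. Rescaling moved the median of all genes tested from -0.01 to 0.03. Of 759 values of named genes under the alternatives, 711 kept direction and call, 11 passed the threshold only there and 37 changed sign. Mrpl52 was at 0.037 after rescaling to the same total, 0.067 with equal quantiles and 0.00398 with equal medians, Mrps18b at 0.017 after rescaling and Mrpl30 at 0.012 with equal quantiles. With a library or pair left out the sign changed in these ranges: -0.28 to 0.11 for Mrpl14, -0.13 to 0.077 for Mrpl52, -0.18 to 0.24 for Mrps18b, -0.17 to 0.097 for Mrps36, -0.053 to 0.082 for Mrps30, -0.0065 to 0.075 for Mrpl24, -0.13 to 0.012 for Mrpl30, -0.22 to 0.084 for Mrpl33, -0.038 to 0.13 for Mrpl44, -0.033 to 0.22 for Mrpl9, -0.29 to 0.089 for Mrps10, -0.59 to 0.019 for Mrps28, -0.016 to 0.14 for Mrpl1 and -0.079 to 0.031 for Mrpl48. The cause of these changes was not tested. A fit with 1 library left out assumes that the remaining libraries vary alike, and depth limits the genes of lowest level most.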
